A study of Homo sapiens with 40 samples.

Results

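Canonical Polycomb repressive complex 1 (PRC1) subunits were followed in 10 diffuse large B-cell lymphoma lines given GSK126, an inhibitor of the histone methyltransferase EZH2. The 9 genes considered were the chromodomain genes CBX2, CBX6, CBX7 and CBX8, the Polyhomeotic genes PHC1, PHC2 and PHC3, and the PCGF genes PCGF2 and BMI1. They were chosen by name, with earlier results of these data known. A gene was read from probe sets whose only annotated symbol was that gene. On this rule 7 of the 9 genes had a value, from 21 of 54675 probe sets, and all 7 were among the 15211 genes tested of 19775 genes with a probe set of their own. CBX8 was not analysed here. The single probe set of BMI1 was also annotated to the BMI1 readthrough gene COMMD3-BMI1, so no value was taken from it.

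The lines with mutant EZH2 were DB, KARPAS-422, Pfeiffer, SU-DHL-4, SU-DHL-6, SU-DHL-10 and WSU-DLCL2, and those with wild type EZH2 were Toledo, OCI-LY-19 and HT. Each line was cultured for 72 h with 500 nM GSK126 or with 0.1% DMSO alone, 2 arrays per line and treatment and 40 arrays in all. The labels give each line an average growth IC50 of GSK126, which ran from 28 nM in Pfeiffer to 13786 nM in Toledo. All are established lines, so each stands for 1 tumour, and the labels name no particular EZH2 mutation.

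Canonical PRC1 holds 1 CBX protein, 1 PHC protein and either PCGF2 (MEL18) or BMI1 around a RING1 or RNF2 ubiquitin ligase. The CBX chromodomain binds the trimethyl mark that EZH2, within PRC2, puts on histone H3, and the sterile alpha motif domain of the PHC proteins links complexes together, which compacts chromatin. Variant PRC1 complexes carry RYBP or YAF2 in place of the CBX protein and do not need that mark. In B cells, Polycomb repression is best known from the germinal centre, where EZH2 is highly expressed.

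Over all 54675 probe sets the correlation was 0.973 to 0.985 between replicate arrays and 0.967 to 0.984 between treatments of a line, while 2 lines correlated at 0.864 to 0.957. The ACTB 3′ minus 5′ probe set difference, a sign of RNA integrity, ran from 0.02 to 0.45 on the log2 scale and differed between GSK126 and DMSO by -0.04 to 0.08 in any line. Of 8 B cell markers 7 had a value, and 5 of them lay above the array median on all 40 arrays, while MS4A1 and BLK lay below it on the OCI-LY-19 arrays. The summed B cell marker signal ran from 24276 to 76239 in GSK126 cultures and from 22220 to 64492 in DMSO cultures. For 10 T and NK markers the range was 230 to 15987 with GSK126 and 248 to 13351 with DMSO. The high end of that range came from CD3D and CD3G in KARPAS-422 and CD8A in Pfeiffer. CD3E was above the array median on 36 of the 40 arrays, CD4 on 8, KLRD1 on 2 and CD2 on 1. TRAT1, NKG7 and GNLY were above it on 0 arrays. The 8 myeloid markers summed to 155 to 382 with GSK126 and 174 to 432 with DMSO, and the 10 stromal and epithelial markers to 802 to 22229 with GSK126 and 711 to 16101 with DMSO.

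Levels are given below as log2 of the deposited microarray signal plus a pseudocount, and a response is the GSK126 mean minus the DMSO mean of a line on that scale. A gene is said to have risen or fallen in a line where its adjusted p in limma was under 0.05, with adjustment over all genes tested in that line. Levels of different genes come from different probes and are not set against each other. The response takes off the DMSO mean, so the response and the DMSO level of a line are not independent. Replicates are called biological in the titles, but nothing says that they were separate cultures, so p-values within a line measure the spread between such arrays, pooled over the 20 groups, which may be technical. A change per cell cannot be told apart from a change in the share of cells that express a gene.

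Under GSK126, CBX7 and PHC1 rose in 5 lines each and PCGF2 and PHC2 in 3 lines each, by up to 3.47-fold, and none of these 4 genes fell in any line. CBX2, CBX6 and PHC3 each rose in 1 line and fell in another. Of the 70 combinations of 7 genes and 10 lines, 19 rose (27.1%), 3 fell (4.29%) and 48 did not pass the test. Over all tested genes 7.55% of such combinations rose and 5.13% fell. The median response was 0.13 over the 70 combinations, against 0.02 over all genes and lines. B cell markers rose in 16 of their 70 combinations and fell in 1, T and NK markers in 0 of 60 in either direction. Myeloid markers rose in 1 and fell in 2 of 40, and stromal and epithelial markers rose in 4 of 80, with 3 of those rises in DCN. When each line was fitted alone, the calls of CBX7 in SU-DHL-6, DB and OCI-LY-19, of PCGF2 and CBX2 in SU-DHL-10, of PHC2 in Pfeiffer and of PHC3 in KARPAS-422 were lost. When all probe sets of a gene were averaged, the calls of PHC2 were lost in its 3 lines, as were those of CBX2 in KARPAS-422 and SU-DHL-10 and of PHC3 in both its lines. Whether these marker changes have a part in the responses of the PRC1 genes was not tested.

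**Figure D1:**
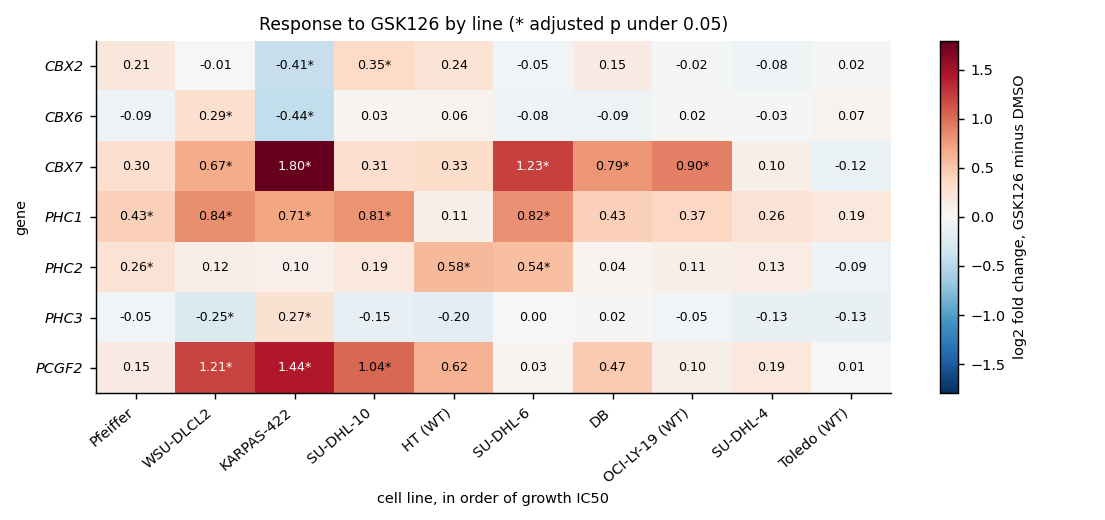
Response to GSK126 (log2 fold change, GSK126 minus DMSO) of each PRC1 subunit gene (rows) in each line (columns, in order of growth IC50; WT marks wild type EZH2), with an asterisk where the adjusted p was under 0.05. The CBX7, PHC1 and PCGF2 rows hold 13 of the 19 rises, and SU-DHL-4 and Toledo hold no asterisk.

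By line, the genes called were most numerous in KARPAS-422 and WSU-DLCL2. In KARPAS-422 CBX7, PHC1, PHC3 and PCGF2 rose and CBX2 and CBX6 fell, where 15.5% of all genes rose and 13.4% fell. In WSU-DLCL2 CBX6, CBX7, PHC1 and PCGF2 rose and PHC3 fell, against 13.9% and 12.7% of all genes. SU-DHL-10 had 3 rises (CBX2, PHC1 and PCGF2), where 11% of all genes rose and 7.16% fell, and SU-DHL-6 had 3 rises (CBX7, PHC1 and PHC2), where 7.42% rose and 3.56% fell. In Pfeiffer, whose growth IC50 was 28 nM, PHC1 and PHC2 rose, where 14.6% of genes rose and 9.93% fell. A single gene rose in HT (PHC2, with 6.31% of genes rising and 3% falling), in DB (CBX7, with 2.5% and 0.618%) and in OCI-LY-19 (CBX7, with 1.97% and 0.44%). None of the 7 genes was called by limma in SU-DHL-4 or Toledo, and 0 had an unadjusted p under 0.05 there. In SU-DHL-4 2.14% of genes rose and 0.454% fell, and in Toledo 0.138% rose and 0.0263% fell.

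CBX7, a chromodomain subunit known for repressing the INK4A-ARF locus, lies on chromosome 22 and was read from a single probe set. It rose in 5 lines, as did 2.73% of genes in at least 5 lines, and its SE was 0.19 in every line. Its promoter in RefSeq (GRCh38.p14, chr22:39152631-39152930, minus strand, 250 bases before to 50 after the start) is shown because this gene gave the largest response of the 7, and CG dinucleotides, the letters by which Polycomb target promoters are usually described, are in capitals.
CBX7: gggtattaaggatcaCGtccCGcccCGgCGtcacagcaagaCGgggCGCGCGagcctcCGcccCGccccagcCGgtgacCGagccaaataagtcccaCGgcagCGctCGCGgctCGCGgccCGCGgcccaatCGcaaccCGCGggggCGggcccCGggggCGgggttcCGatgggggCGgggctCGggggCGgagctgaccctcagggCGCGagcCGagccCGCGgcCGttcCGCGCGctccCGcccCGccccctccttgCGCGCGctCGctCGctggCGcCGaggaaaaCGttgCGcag

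That window holds 50 CG dinucleotides, more than 98.7% of 35116 promoters of the same length, whose median was 14. The GC box GGGCGG, which contains a CG itself, occurs 9 times on either strand, and 45.0% of all such promoters hold at least 1. A high CG count was not particular to CBX7 among the measured members. The CBX6 window holds 47 (more than 97.6% of promoters), the PHC2 windows 48 and 30 (98.0% and 77.6%), and the PHC3 window 15 (51.1%).

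In KARPAS-422 the CBX7 level was 8.17 and 8.21 with GSK126, against 6.58 and 6.20 with DMSO, a response of 1.80 or 3.47-fold (adjusted p = 2.06e-08). SU-DHL-6 arrays read 7.65 and 7.49 with GSK126, against 6.49 and 6.20 with DMSO, a response of 1.23 or 2.34-fold (adjusted p = 5.34e-05). Both lines had their DMSO levels at the low end of the 10 lines, where the pseudocount makes the fold too small. The CBX7 probe set lay above the array median on 36 of the 40 arrays. Below it were both SU-DHL-6 DMSO arrays, DMSO replicate 2 of KARPAS-422 and DMSO replicate 1 of OCI-LY-19. These rises thus start from dim signals, and CBX7 has no second probe set as a check. OCI-LY-19, a wild type line, gave 7.46 and 7.32 with GSK126, against 6.25 and 6.73 with DMSO, a response of 0.90 (adjusted p = 0.00624), and the call was lost without GSK126 replicate 1 or DMSO replicate 1. DB gave 7.73 and 7.90 with GSK126, against 6.96 and 7.09 with DMSO, a response of 0.79 (adjusted p = 0.0155) that was lost whichever of its arrays was left out. WSU-DLCL2 gave 8.60 and 8.76 with GSK126, against 8.01 and 8.02 with DMSO, a response of 0.67 (adjusted p = 0.0091), lost without GSK126 replicate 2 and with arrays set to equal medians. In all 5 lines both GSK126 arrays lay above both DMSO arrays, which is nearly given once a line is called.

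The other lines did not pass the test for CBX7. Pfeiffer, the line with the highest CBX7 level, read 9.93 and 9.87 with GSK126, against 9.58 and 9.63 with DMSO (0.30, adjusted p = 0.292). SU-DHL-10 read 8.93 and 8.64 with GSK126, against 8.37 and 8.59 with DMSO (0.31, adjusted p = 0.309). HT read 8.21 and 8.35 with GSK126, against 7.97 and 7.93 with DMSO (0.33, adjusted p = 0.368). In these 3 lines the GSK126 arrays also lay above the DMSO arrays, which does not count as a rise. SU-DHL-4 read 7.91 and 7.51 with GSK126, against 7.85 and 7.37 with DMSO (0.10, adjusted p = 0.917). Toledo read 8.20 and 8.59 with GSK126, against 8.58 and 8.45 with DMSO (-0.12), and in SU-DHL-4 and Toledo the groups overlapped.

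PHC1, a Polyhomeotic subunit on chromosome 12, had a response above 0 in all 10 lines, as did 2.95% of all genes. It rose in 5 lines, as did 2.73% of genes in at least 5 lines. Those 5 were EZH2 mutant, as are 7 of the 10 lines. In the wild type lines 6.31% (HT), 1.97% (OCI-LY-19) and 0.138% (Toledo) of all genes rose. The SE of PHC1 was 0.13 in every line. RefSeq gives 2 starts for it, at chr12:8913593-8913892 and chr12:8914259-8914558 (GRCh38.p14, plus strand), shown because the PHC1 response was above 0 in every line, with CG in capitals.
PHC1 upstream start: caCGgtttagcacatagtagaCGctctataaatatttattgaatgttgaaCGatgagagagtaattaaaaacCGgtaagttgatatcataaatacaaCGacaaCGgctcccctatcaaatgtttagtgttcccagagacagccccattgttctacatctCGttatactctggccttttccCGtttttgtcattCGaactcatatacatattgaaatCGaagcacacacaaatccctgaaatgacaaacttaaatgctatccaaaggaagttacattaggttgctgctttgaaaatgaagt
PHC1 downstream start: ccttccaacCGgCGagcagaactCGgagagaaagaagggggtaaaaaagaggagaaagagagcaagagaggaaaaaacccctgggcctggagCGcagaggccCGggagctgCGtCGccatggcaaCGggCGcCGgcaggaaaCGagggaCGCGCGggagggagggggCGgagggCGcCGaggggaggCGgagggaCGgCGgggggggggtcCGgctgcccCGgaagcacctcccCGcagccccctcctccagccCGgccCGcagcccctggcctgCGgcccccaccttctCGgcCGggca

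The upstream window holds 10 CG dinucleotides, more than 43.6% of promoters, and no GGGCGG. The downstream window holds 28, more than 73.8% of promoters, and 1 GGGCGG on either strand. The arrays do not say which start is used.

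WSU-DLCL2 had the largest PHC1 response, with 10.44 and 10.42 under GSK126, against 9.40 and 9.79 under DMSO, which is 0.84 or 1.79-fold (adjusted p = 1.94e-05). SU-DHL-6 gave 9.16 and 9.01 with GSK126, against 8.22 and 8.31 with DMSO (0.82, adjusted p = 9.25e-05). SU-DHL-10 gave 9.15 and 9.30 with GSK126, against 8.38 and 8.45 with DMSO (0.81, adjusted p = 5.52e-05). These last 2 lines had the lowest PHC1 levels of the 10 under DMSO. KARPAS-422 gave 10.08 and 10.03 with GSK126, against 9.42 and 9.28 with DMSO (0.71, adjusted p = 0.000147). The calls in these 4 lines held under each of the 14 alternative settings and omissions of an array. Pfeiffer gave 9.97 and 9.91 with GSK126, against 9.63 and 9.39 with DMSO (0.43, adjusted p = 0.0187), a call lost with arrays at equal medians and without DMSO replicate 2 or either GSK126 array.

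The PHC1 response in DB was as large as in Pfeiffer but did not pass, with 9.95 and 9.82 under GSK126, against 9.52 and 9.39 under DMSO (0.43, adjusted p = 0.0795). OCI-LY-19 read 10.07 and 9.98 with GSK126, against 9.52 and 9.80 with DMSO (0.37, adjusted p = 0.186). SU-DHL-4 read 10.57 and 10.47 with GSK126, against 10.31 and 10.20 with DMSO (0.26, adjusted p = 0.415). In all 3 lines both GSK126 arrays lay above both DMSO arrays, which does not count as a rise. Toledo read 10.88 and 10.61 with GSK126, against 10.39 and 10.71 with DMSO (0.19, adjusted p = 0.93), and HT 10.56 and 10.36 with GSK126, against 10.16 and 10.55 with DMSO (0.11, adjusted p = 0.753). The groups overlapped in Toledo and HT, the lines with the highest PHC1 levels under DMSO.

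The level of the second PHC1 probe set correlated with that of the first at 0.89 over the 40 arrays, which includes the differences between lines. The second also had a response above 0 in all 10 lines. It rose in WSU-DLCL2 (0.62, adjusted p = 0.000254) and KARPAS-422 (0.49, adjusted p = 0.00236). In SU-DHL-6 (0.29), SU-DHL-10 (0.27) and Pfeiffer (0.23) it did not pass, where the first read 0.82, 0.81 and 0.43.

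PCGF2, the MEL18 paralogue of BMI1 on chromosome 17, rose in 3 EZH2 mutant lines, as did 9.45% of genes in at least 3 lines, and its SE was 0.21. Its RefSeq promoter (GRCh38.p14, chr17:38746579-38746878, minus strand) is shown beside that of CBX7, since both genes rose by over 1 log2 unit in some line and their promoters differ in CG, in capitals.
PCGF2: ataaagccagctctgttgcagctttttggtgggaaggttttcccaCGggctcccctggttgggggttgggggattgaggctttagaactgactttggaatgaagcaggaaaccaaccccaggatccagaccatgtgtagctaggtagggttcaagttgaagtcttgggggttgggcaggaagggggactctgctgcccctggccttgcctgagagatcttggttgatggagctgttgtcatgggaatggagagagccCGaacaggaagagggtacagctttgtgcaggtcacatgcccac

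The PCGF2 window holds 2 CG dinucleotides, more than 11.0% of promoters, and no GGGCGG. The letters describe this window only.

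KARPAS-422 gave PCGF2 levels of 8.10 and 8.28 with GSK126, against 6.97 and 6.52 with DMSO, a response of 1.44 or 2.71-fold (adjusted p = 4.4e-06). WSU-DLCL2 gave 8.23 and 8.39 with GSK126, against 7.19 and 7.02 with DMSO (1.21 or 2.31-fold, adjusted p = 6.23e-05). SU-DHL-10 gave 7.81 and 7.88 with GSK126, against 6.52 and 7.10 with DMSO (1.04 or 2.05-fold, adjusted p = 0.000628). The groups stood apart in all 3 lines. HT read 7.80 and 7.94 with GSK126, against 7.41 and 7.08 with DMSO (0.62, adjusted p = 0.0614), and DB read 9.79 and 9.73 with GSK126, against 9.28 and 9.29 with DMSO (0.47, adjusted p = 0.312). SU-DHL-4 read 9.97 and 10.05 with GSK126, against 9.88 and 9.75 with DMSO (0.19). Pfeiffer read 10.25 and 10.43 with GSK126, against 10.29 and 10.10 with DMSO (0.15). The groups stood apart in HT, DB and SU-DHL-4 without passing the test, and overlapped in Pfeiffer. SU-DHL-6 read 6.14 and 6.96 with GSK126, against 6.64 and 6.40 with DMSO (0.03), OCI-LY-19 8.16 and 8.36 with GSK126, against 8.12 and 8.19 with DMSO (0.10), and Toledo 6.90 and 7.30 with GSK126, against 6.99 and 7.19 with DMSO (0.01).

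All 4 PCGF2 probe sets are of a type that may share probes with other sequences, and they did not all move alike. The second, which correlated with the first at 0.90 over 40 arrays, rose in WSU-DLCL2 (0.86, adjusted p = 0.00504) and SU-DHL-10 (0.80, adjusted p = 0.0129) and read 0.33 in KARPAS-422 (adjusted p = 0.333). Another, which correlated with the first at 0.57, had no call and read -0.32 in WSU-DLCL2 (adjusted p = 0.594). The calls in WSU-DLCL2 and KARPAS-422 were lost when the probe sets were averaged.

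**Figure D2:**
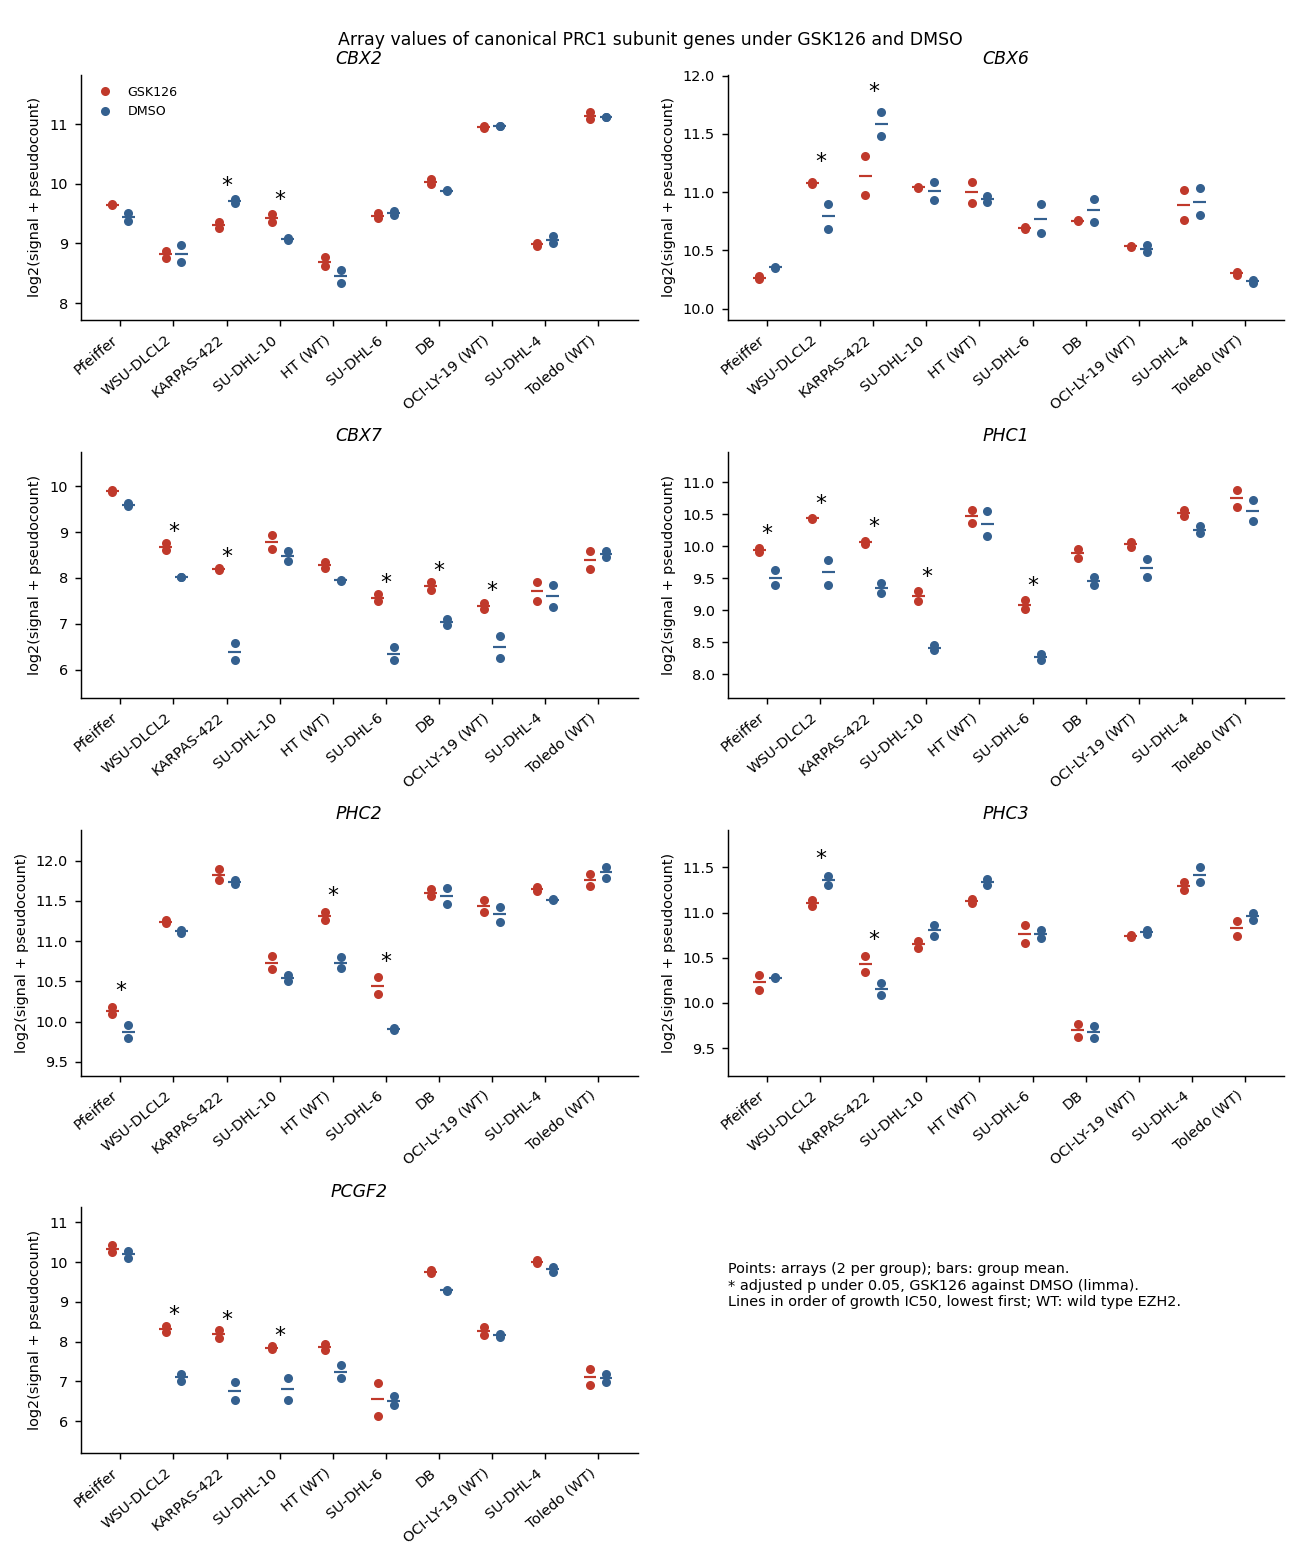
Array values, as log2(signal + pseudocount), of the 7 PRC1 subunit genes in 10 lines, with GSK126 points left of DMSO points, 2 arrays per group, bars at the group mean and an asterisk where the adjusted p was under 0.05. In KARPAS-422 the CBX7 arrays read 8.17 and 8.21 with GSK126, against 6.58 and 6.20 with DMSO.

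PHC2, the Polyhomeotic subunit on chromosome 1, rose in 3 lines, as did 9.45% of genes in at least 3 lines, by 0.58 at most (SE 0.09). HT, a wild type line, gave 11.27 and 11.36 with GSK126, against 10.80 and 10.66 with DMSO (0.58, adjusted p = 2.74e-05). SU-DHL-6 gave 10.55 and 10.34 with GSK126, against 9.89 and 9.92 with DMSO (0.54, adjusted p = 7.44e-05). Pfeiffer gave 10.09 and 10.19 with GSK126, against 9.80 and 9.96 with DMSO (0.26, adjusted p = 0.0253), a call lost at equal medians and without GSK126 replicate 2 or DMSO replicate 1. The groups stood apart in all 3 lines. In the other lines the response was between -0.09 in Toledo and 0.19 in SU-DHL-10. The other PHC2 probe sets were dim, above the array median on 15 and on 2 of 40 arrays, and neither was called in any line. The calls in all 3 lines were lost when the probe sets were averaged.

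PHC3, the Polyhomeotic subunit on chromosome 3, moved by small amounts and in both directions (SE 0.08). It fell in WSU-DLCL2, with 11.14 and 11.07 under GSK126, against 11.31 and 11.41 under DMSO (-0.25, adjusted p = 0.0246). It rose in KARPAS-422, with 10.51 and 10.34 under GSK126, against 10.09 and 10.22 under DMSO (0.27, adjusted p = 0.0161). Both calls were lost when single arrays were left out: DMSO replicate 2 or either GSK126 array in WSU-DLCL2, and DMSO replicate 1 or GSK126 replicate 1 in KARPAS-422. The fall in WSU-DLCL2 was also lost with quantile normalization, and the rise in KARPAS-422 with quantile normalization and at equal medians. Elsewhere it lay between -0.20 in HT (adjusted p = 0.151) and 0.02 in DB. Of its 4 other probe sets, 1 was called, and fell in SU-DHL-10 (-0.73, adjusted p = 0.00433), where the first read -0.15.

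CBX6, a chromodomain subunit whose gene lies on chromosome 22 with 7 protein-coding genes between it and CBX7, went the other way from PHC3 in these same lines (SE 0.11). KARPAS-422, the line with the highest CBX6 level, gave 10.97 and 11.31 with GSK126, against 11.69 and 11.48 with DMSO, so CBX6 fell (-0.44, adjusted p = 0.00176). That call was lost without GSK126 replicate 1 or DMSO replicate 1. In WSU-DLCL2 it rose, with 11.07 and 11.09 under GSK126, against 10.90 and 10.69 under DMSO (0.29, adjusted p = 0.0431), and the call was lost at equal medians, with no filter on low values, with no intensity trend, with a replicate block, and without DMSO replicate 2 or either GSK126 array. The other 8 lines lay between -0.09 and 0.07. The second CBX6 probe set rose in WSU-DLCL2 (0.76, adjusted p = 0.000488) and read -0.40 in KARPAS-422 (adjusted p = 0.0608).

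CBX2, a chromodomain subunit on chromosome 17 next to CBX8, fell in KARPAS-422 and rose in SU-DHL-10 (SE 0.09). KARPAS-422 gave 9.36 and 9.25 with GSK126, against 9.68 and 9.75 with DMSO (-0.41, adjusted p = 0.00107). SU-DHL-10 gave 9.50 and 9.35 with GSK126, against 9.05 and 9.09 with DMSO (0.35, adjusted p = 0.00698), a call lost at equal medians and without GSK126 replicate 1 or DMSO replicate 1. The other lines lay between -0.08 in SU-DHL-4 and 0.24 in HT. The 3 other CBX2 probe sets had no call, and 1 of them, bright on all 40 arrays, read -0.26 in SU-DHL-10 (adjusted p = 0.363). In KARPAS-422, CBX7 thus rose while CBX2 and CBX6 fell.

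**Figure D3:**
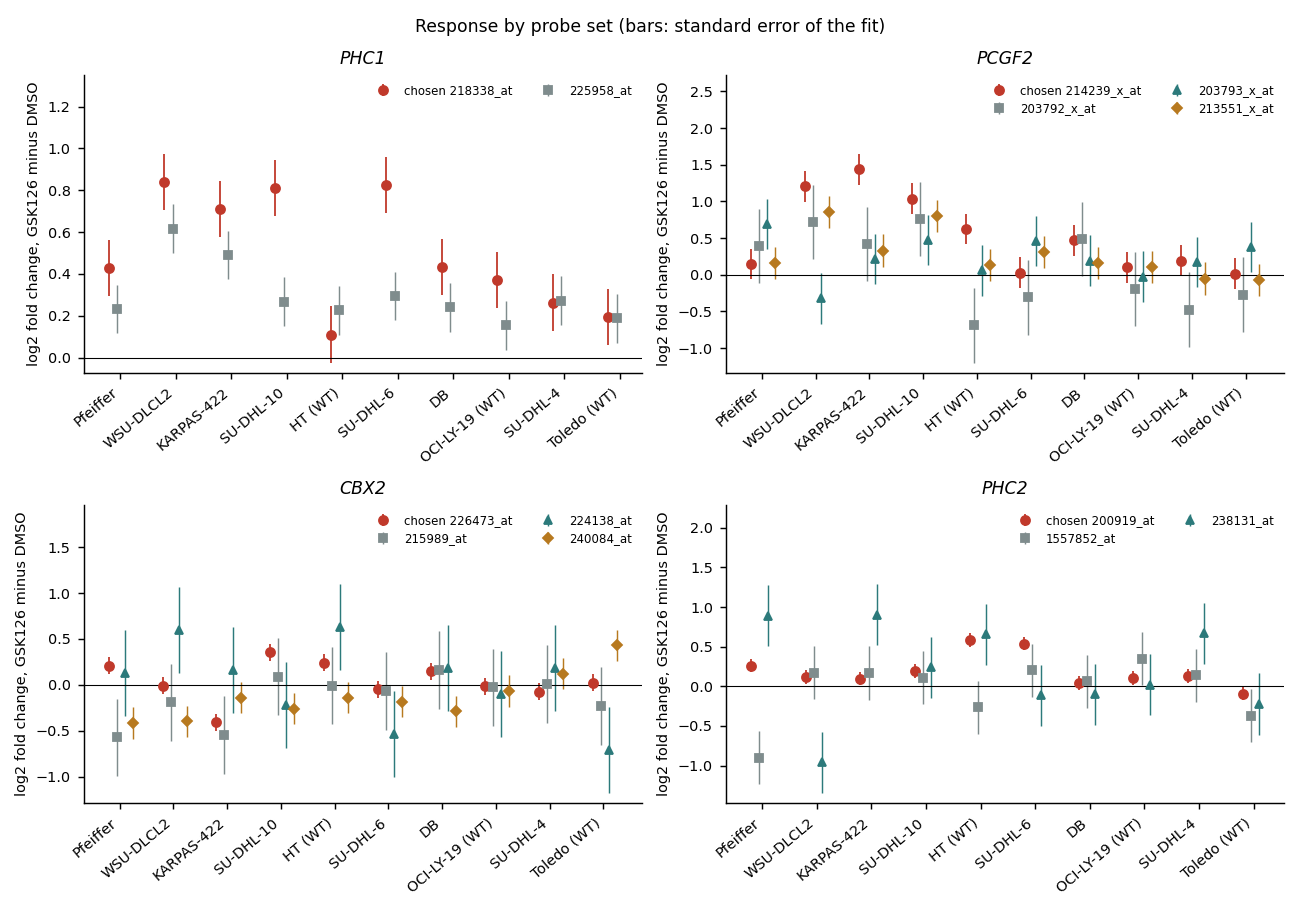
Response (log2 fold change, GSK126 minus DMSO) by probe set for PHC1, PCGF2, CBX2 and PHC2 in each line, with bars at 1 SE of the fit; red circles are the probe set with the highest mean, used in the text. Both PHC1 probe sets lie above 0 in all 10 lines, while PCGF2 sets read 1.21 and -0.32 in WSU-DLCL2.

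The responses of all 7 genes differed between lines in an F test of the line by treatment interaction (limma), with adjusted p from 4.36e-05 for CBX7 to 0.035 for CBX6. Such a difference was found for 38.8% of all genes. With all probe sets of a gene averaged, 3 of the 7 genes passed (CBX6, CBX7 and PHC1). With the line as the replicate, no mean response was called. Over the 7 EZH2 mutant lines the mean response was 0.74 ± 0.21 (SE) for CBX7, 0.65 ± 0.19 for PCGF2 and 0.62 ± 0.12 for PHC1, with limma adjusted p of 0.0783, 0.0834 and 0.0568. Only 0.00657% of genes passed at that threshold, and 25.1% had an unadjusted p under 0.05. Over the 3 wild type lines the mean response was 0.37 ± 0.33 (SE) for CBX7, 0.25 ± 0.30 for PCGF2 and 0.22 ± 0.18 for PHC1, with 0 of all genes passing and 3.62% at an unadjusted p under 0.05.

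Mutant and wild type lines were then compared directly. PHC1 responded by 0.39 ± 0.21 (SE) more in mutant lines (limma adjusted p = 0.992; two-sided exact permutation p = 0.05, of which the smallest possible over 120 arrangements is 0.00833). The PHC1 difference was 0.38, 0.48 and 0.45 within the lines whose sample descriptions carry R6, R7 and R8, a tag that the labels do not explain. These values rest on 2, 4 and 1 mutant lines, each time set against 1 wild type line. For the other genes the exact p ran from 0.325 to 1. No gene of the 15211 passed in this comparison, and 3.78% had an unadjusted p under 0.05. Against growth IC50, the slopes per 10-fold were -0.29 ± 0.22 for PCGF2, -0.28 ± 0.24 for CBX7 and -0.18 ± 0.14 for PHC1 (SE), again with 0 genes called and 9.34% at an unadjusted p under 0.05.

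Without the inhibitor, the lines differed widely in these genes. All 7 genes differed between lines under DMSO in the limma F test, as did 84.6% of genes. CBX7 was highest in Pfeiffer at 9.60, followed by Toledo at 8.51 and SU-DHL-10 at 8.48, which did not differ beyond their spread. WSU-DLCL2 (8.01), HT (7.95) and SU-DHL-4 (7.61) came next, below SU-DHL-10 and above DB, and neighbours among these 3 did not differ. They were followed by DB at 7.03, and last OCI-LY-19 (6.49), KARPAS-422 (6.39) and SU-DHL-6 (6.34), which did not differ. PHC1 fell into 3 levels: Toledo (10.55), HT (10.35) and SU-DHL-4 (10.26), then 5 lines from OCI-LY-19 (9.66) to KARPAS-422 (9.35), then SU-DHL-10 (8.42) and SU-DHL-6 (8.26). Neighbours within each of these levels did not differ. PCGF2 was high in Pfeiffer (10.19) and SU-DHL-4 (9.82), lower in DB (9.29) and again in OCI-LY-19 (8.16), and between 7.24 and 6.52 in the other 6 lines without a difference between neighbours.

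CBX2 stood highest in the wild type lines Toledo (11.12) and OCI-LY-19 (10.97) and lowest in HT (8.45), also wild type. Between them came DB (9.89), KARPAS-422 (9.71), SU-DHL-6 (9.52) and Pfeiffer (9.44), where each did not differ from the next of the 4, although DB differed from SU-DHL-6 and Pfeiffer, and KARPAS-422 from Pfeiffer. All 4 lay below OCI-LY-19 and above SU-DHL-10 (9.07) and SU-DHL-4 (9.06), which in turn lay above WSU-DLCL2 (8.83). CBX6 spanned the least, with KARPAS-422 at 11.58 above 6 lines from 11.01 to 10.77 and OCI-LY-19, Pfeiffer and Toledo from 10.52 to 10.24. PHC2 was highest in Toledo (11.85), KARPAS-422, DB, SU-DHL-4 and OCI-LY-19 (11.33), followed by WSU-DLCL2 (11.12), HT (10.73) and SU-DHL-10 (10.54), and lowest in SU-DHL-6 (9.91) and Pfeiffer (9.88). PHC3 was highest in SU-DHL-4 (11.42), WSU-DLCL2 and HT (11.33), and lowest in DB at 9.68, below KARPAS-422 at 10.16. Of 45 pairs of lines, CBX2 differed in 40, PHC2 in 39, CBX7 in 38, PHC3 in 35, PCGF2 in 32, PHC1 in 31 and CBX6 in 28, while over pairs a median of 53.5% of all genes differed.

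**Figure D4:**
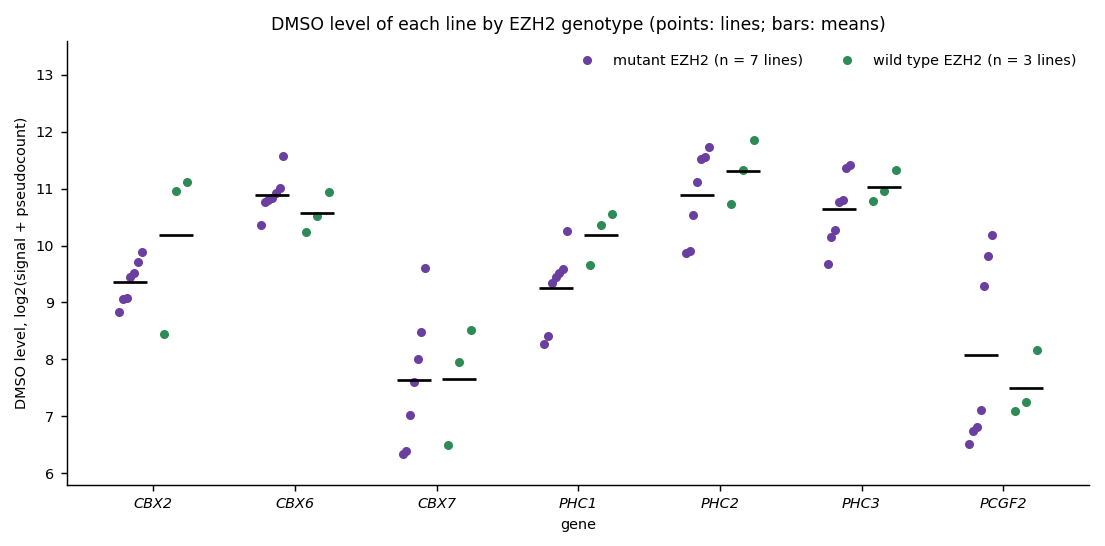
DMSO level of each PRC1 subunit gene, as log2(signal + pseudocount), with 1 point per line (mean of 2 arrays), EZH2 mutant lines left of wild type lines and bars at the means. PHC1 averages 9.26 in mutant and 10.19 in wild type lines, and for CBX2 the wild type lines hold both the highest value, 11.12, and the lowest, 8.45.

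By genotype, PHC1 averaged 9.26 ± 0.70 in mutant lines and 10.19 ± 0.47 in wild type lines under DMSO (SD, n = 7 and 3), a difference of -0.92 ± 0.42 (SE). It did not pass (limma adjusted p = 0.648, two-sided exact permutation p = 0.0583). Within the R6, R7 and R8 lines, each with 1 wild type line, the difference was -1.12, -0.92 and -1.39. CBX2 averaged 9.36 ± 0.38 in mutant lines (SD, n = 7) and read 11.12, 10.97 and 8.45 in the 3 wild type lines, a difference of -0.82 ± 0.52 (SE) with a limma adjusted p of 0.752. Without HT that difference was -1.68 (limma adjusted p = 0.0443). Among all genes 0.0263% were higher and 0.0263% lower in mutant lines, and none of the 7 PRC1 genes was among them, while 7.78% of genes had an unadjusted p under 0.05. Against growth IC50, PHC2 under DMSO had a slope of 0.58 ± 0.25 per 10-fold (SE, limma adjusted p = 0.721), and no gene passed, with 6.9% at an unadjusted p under 0.05.

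Related genes were taken from lists chosen with earlier results known, and their counts stand against 7.55% of combinations rising and 5.13% falling over all genes. Of a list of 8 other PRC1 subunit and MBT domain genes 6 had a value, with 6 rises (10%) and 0 falls in 60 combinations. SFMBT1 gave 3 of these rises, L3MBTL1 2 and SCMH1 1, while RING1, SCML1 and SCML2 gave 0. RING1, a ubiquitin ligase of the complex, was called in no line, with responses from 0.02 in WSU-DLCL2 to 0.31 in OCI-LY-19 (adjusted p = 0.0656). SFMBT1, an MBT domain protein, rose most in SU-DHL-4, by 0.55 ± 0.11 (SE, adjusted p = 0.0039), and L3MBTL1, another, by 0.65 ± 0.18 in WSU-DLCL2 (adjusted p = 0.00694).

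Variant PRC1 genes changed in both directions, with 27 rises (11.2%) and 19 falls (7.92%) in 240 combinations of 24 genes. Both shares were somewhat above those of all genes, 7.55% and 5.13%. AUTS2, a subunit of PCGF3 and PCGF5 complexes that is known to counter their repressive activity, rose in 6 lines, and most in KARPAS-422, where its mean level was 10.85 with GSK126 and 8.53 with DMSO (2.32 ± 0.11 SE, adjusted p = 1.58e-15). PCGF5 rose in 5 lines, with 7.79 under GSK126 and 6.36 under DMSO in KARPAS-422 (1.43 ± 0.11 SE, adjusted p = 3.33e-11). Chosen after their values were seen, RYBP, which replaces the CBX protein in variant complexes, rose in 7 lines, by up to 0.91 in KARPAS-422 (adjusted p = 5.54e-11), and PCGF6 fell in 6, with -0.85 in Pfeiffer (adjusted p = 2.38e-10). RYBP thus rose in KARPAS-422 together with the canonical CBX7, while CBX2 and CBX6 fell.

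Among H2A deubiquitinases and their partners, 7 genes had 7 rises (10%) and 0 falls in 70 combinations. USP3 rose in 4 lines, by 0.91 ± 0.08 (SE) in KARPAS-422 (adjusted p = 4.11e-10), and ASXL3, a partner of the deubiquitinase BAP1, by 1.13 ± 0.40 there (adjusted p = 0.0305). The 3 HP1 genes, whose chromodomains read another histone H3 mark, had 1 rise (3.33%) and 7 falls (23.3%) in 30 combinations. CBX1 fell in 5 lines, by 0.32 ± 0.05 (SE) in Pfeiffer (adjusted p = 5.16e-05), and CBX5 rose by 0.48 ± 0.08 in KARPAS-422 (adjusted p = 1.98e-05). The 6 PRC2 core genes had 2 rises (3.33%) and 17 falls (28.3%) in 60 combinations. EZH2, the target of GSK126, fell in 5 lines, with 11.14 under GSK126 and 11.79 under DMSO in Pfeiffer (-0.65 ± 0.06 SE, adjusted p = 6.63e-10), and its paralogue EZH1 rose by 0.38 ± 0.10 in KARPAS-422 (adjusted p = 0.00337).

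**Figure D5:**
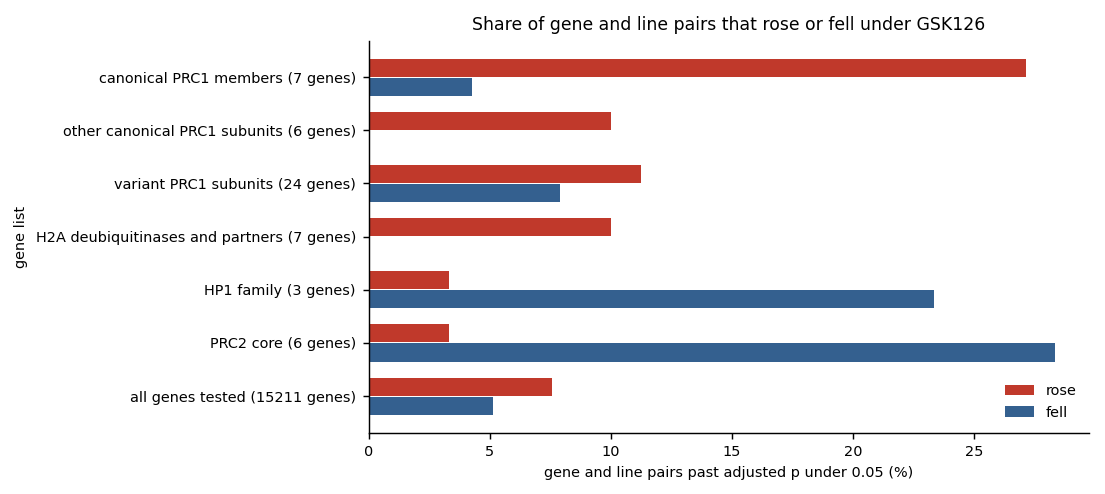
Share of gene and line combinations that rose (red) or fell (blue) under GSK126 at an adjusted p under 0.05, for the 7 canonical PRC1 genes, related lists and all 15211 genes tested. The list labelled other canonical PRC1 subunits also holds the MBT domain genes SFMBT1 and L3MBTL1. The 7 genes stand at 27.1% rising and 4.29% falling, all genes at 7.55% and 5.13%, and the PRC2 core genes at 3.33% and 28.3%.

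The genes whose response followed that of a PRC1 gene most closely over the 10 lines were taken by Pearson correlation, as a description of 10 points from the same arrays. For CBX7 they were C19orf18 (0.95) and TEDC2-AS1 (0.93), for PHC1 CAPN1 (0.93) and TRAM2 (0.91), and for PCGF2 TDRKH (0.95) and NEXMIF (0.94). For CBX2 they were JTB (0.95) and ACP1 (0.95), for CBX6 TECR (0.94) and CACNA1I (0.93), for PHC2 TLCD4 (0.92) and DLX1 (0.90), and for PHC3 H2BC14 (0.96) and CYLD (0.95). By DMSO level the closest were ZNHIT3 (0.94) and NPIPA1 (0.92) for CBX7, YPEL2 and KDM7A (0.92 each) for PHC1, and KIAA0513 (0.93) and MIATNB (0.91) for PCGF2. They were ANKRD13D and LINC01648 (0.97 each) for CBX2, GCH1 (0.98) and VTI1B (0.94) for CBX6, SLC9B2 (0.94) and KLHL8 (0.93) for PHC2, and PMAIP1 (0.91) and GPR160 (0.90) for PHC3. None of these lists named another PRC1 subunit gene, but each holds only the 2 highest correlations over all tested genes, so this says little about the subunits. Between pairs of the 7 genes the Pearson correlation of the responses ran from -0.95 (CBX6 with PHC3) to 0.78 (CBX7 with PHC3).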

How the data were processed

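Biotin-labelled RNA from 10 lymphoma lines was measured on 40 one-colour Affymetrix arrays. The deposited values are log2 signals made by the authors with MAS5, per the submitters' processing notes, which name no version. Back on the linear scale, each array had a mean of 500 after trimming 2% at each end. Values were analysed as log2(signal + 17.72), the pseudocount being the median of the arrays' 25th percentiles, which understates changes of dim genes. Symbols came from the platform annotation. Of the probe sets annotated to 1 gene alone, the brightest on average stood for the gene, which was tested if above the array median on at least 2 arrays.

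Groups came from the labels. limma 3.58.1 in R 4.3.3 fitted 1 mean per line and treatment, with an intensity trend (20 residual and 6.98 prior degrees of freedom). Across lines, limma was fitted to 1 value per line. Tests were two-sided, with Benjamini-Hochberg adjustment over 15211 genes and a threshold of 0.05. The fit was tested on simulated data. Alternatives were other pseudocounts, filters, scalings, probe sets and fits, and leaving out arrays or lines. All 9 members were named, with the 2 genes most like each and the 2 most changed genes of each related list. The members and lists were chosen with earlier results of these data known. Arrays with the same replicate number deviated from their group means with correlations from -0.04 to 0.07 between treatments, so numbers were not taken to pair cultures. Precision is limited by the number of arrays. Promoters are RefSeq's, of GRCh38.p14; 7 of the 9 members had one.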

Additional observations from a re-analysis of the deposited data

Results flagged for a closer look

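The response to GSK126 differed between the 10 lines for each of the 7 measured PRC1 genes, by the F test of the line by treatment interaction in limma, which passed for 38.8% of all genes. Adjusted p was 4.36e-05 for CBX7, 0.000588 for PCGF2, 0.000791 for PHC2, 0.00193 for CBX2, 0.00663 for PHC1, 0.0344 for PHC3 and 0.035 for CBX6. The responses ran from -0.12 to 1.80 for CBX7, from 0.01 to 1.44 for PCGF2, from -0.09 to 0.58 for PHC2, from -0.41 to 0.35 for CBX2, from 0.11 to 0.84 for PHC1, from -0.25 to 0.27 for PHC3 and from -0.44 to 0.29 for CBX6, on the log2 scale. With all probe sets of a gene averaged 3 genes passed (CBX6, CBX7 and PHC1), and with a replicate block 5 did (all but CBX6 and PHC3). Among the 7 mutant lines no line stood apart by Dixon's test, in 14 tests of a response or DMSO level; the 3 wild type lines were too few to test.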

How the results depend on the processing

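Counts below are of the 7 PRC1 genes called. Over counts, 293 alternative values stayed within 1.5 times of the reported count and 30 did not. For single genes 2356 stayed on the same side of the threshold, 90 fell below it and 13 passed it. A further 10, all called in the main fit, changed sign. Changes of sign among results that stayed below the threshold were not counted. A pseudocount of 100, or a filter of 20 arrays above the median, gave 2 called genes in HT (adding PCGF2) and 2 in the mean of mutant lines (CBX7 and PHC1), against 1 and 0. Setting arrays to equal medians moved the median response of all genes by -0.23 to 0.04 between lines and gave 0 in Pfeiffer, 3 in WSU-DLCL2 and 1 (PHC1) in the mean of mutant lines. Averaging all probe sets of a gene gave 2 in DB, 0 in HT, 3 each in KARPAS-422 and WSU-DLCL2 and 1 in Pfeiffer, and 3 genes differing between lines. Fitting each line alone gave 1 in Pfeiffer, 1 in SU-DHL-10 and 0 in OCI-LY-19. The causes of these moves were not tested.

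Leaving out 1 array at a time gave 4 to 6 in KARPAS-422, 2 to 5 in WSU-DLCL2, 0 to 1 in Pfeiffer, 2 to 3 in SU-DHL-10, 1 in HT, 3 in SU-DHL-6, 0 in DB (CBX7 lost with any array), 0 to 1 in OCI-LY-19, and 5 to 7 genes differing between lines. Leaving out 1 line at a time gave 0 to 1 genes differing by genotype under DMSO, the 1 being CBX2 without HT. Replicate numbers did not pair arrays in any line, and with a replicate block 4 genes were called in WSU-DLCL2 against 5 (CBX6 lost), and 5 differed between lines against 7 (CBX6 and PHC3 lost).

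Among called responses, signs turned with averaged probe sets for PHC3 in WSU-DLCL2 (0.00876) and CBX2 in SU-DHL-10 (-0.00864). Other probe sets turned CBX2 to 0.16 in KARPAS-422 and to -0.22 and -0.26 in SU-DHL-10, PHC2 to -0.90 in Pfeiffer, -0.26 in HT and -0.12 in SU-DHL-6, PHC3 to 0.39 in WSU-DLCL2 and PCGF2 to -0.32 in WSU-DLCL2, none of them called.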
